A study of Homo sapiens with 16 samples.

Results

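Aquaporin 9 (AQP9), its relatives AQP7, AQP1 and AQP3, and the AQP7 pseudogene AQP7P1 were followed across U87 glioblastoma xenografts. The genes were chosen by symbol, with AQP9 leading because its levels stood apart in the first of 2 experiments, so its values there are a description. Of the 5 symbols, 3 were found among the 17318 genes in the table of experiment 1 (AQP9, AQP7P1 and AQP1) and 4 among the 18168 genes in that of experiment 2 (the same ones and AQP7). AQP7 was absent from the table of experiment 1 and AQP3 from both, and they are not analysed further there. U87 is an established human glioblastoma cell line, and here it carried luciferase and grew in the brains of nude mice. The mice received exosomes of MSC origin that carried either an anti-MYC siRNA (human MYC) or a scramble siRNA, and RNA of each tumour was sequenced once the mouse had to be euthanised. Each of the 16 libraries came from its own mouse.

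The groups were Myc1 (MYC siRNA 1, n = 3) against Scr1 (scramble 1, n = 4) in experiment 1, and Myc2 (MYC siRNA 2, n = 5) against Scr2 (scramble 2, n = 4) in experiment 2. All groups shared the U87 graft, a genotype label of WT, exosomes as the carrier, and an RNA integrity score of 7.2 or more. In experiment 1, 1e+09 exosomes in 100 µl were injected behind the eye every other day from day 28 after implantation. The sources used here do not give the dosing of experiment 2 or the day on which each tumour was taken. All tumours came from 1 cell line, and mouse host cells remain in such grafts. In bulk tumour RNA, fewer cells of a type and less RNA per cell cannot be told apart.

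Aquaporins are membrane channels that let water pass along osmotic gradients. The aquaglyceroporins AQP3, AQP7 and AQP9 also carry glycerol, and AQP9 passes further small solutes such as urea and lactate. AQP9 is best known as the glycerol entry channel of hepatocytes and is also found in leukocytes and in some astrocytes. AQP7 lets glycerol out of adipocytes, and AQP1 is a water channel of red cells, kidney tubules and the choroid plexus. In healthy brain the main water channel is AQP4 of astrocyte endfeet, which had no values in either experiment.

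Values are log2 CPM (read counts scaled to a common library size, on a log2 scale), made equal in distribution within each table, so levels were compared only within an experiment. The estimated depth was 3.14 M reads in Scr1 replicate 3 and at least 15.1 M in the other 6 libraries of experiment 1. It ran from 11.1 to 27.3 M in experiment 2, where Scr2 replicate 4 was the shallowest. MYC itself had 14.3 to 38.1 CPM in Myc1 tumours and 21.2 to 108 CPM in Scr1 tumours, a log2 difference of -0.83 ± 0.54 (SE). In experiment 2 it went against the labels, with 42.3 to 72.1 CPM in the libraries labelled Myc2 and 25.9 to 47.1 CPM in those labelled Scr2, a difference of 0.57 ± 0.21. No gene passed an adjusted p of 0.05 with limma in either experiment (0% of 13933 genes tested in experiment 1 and 0% of 14208 in experiment 2). At an unadjusted p under 0.05, limma gave 273 genes higher (1.96%) and 212 lower (1.52%) in Myc1, and 995 higher (7%) and 903 lower (6.36%) in Myc2 by label.

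AQP9 (ENSG00000103569) lies on chromosome 15, within the span of ALDH1A2 on the opposite strand in GENCODE 29. Whether the authors counted by strand is not given in the sources used here, and ALDH1A2 had no values in either experiment. No 50-base window of the 3280 in AQP9 transcripts was shared with another gene. The 250 bases before the RefSeq start of AQP9 (GRCh38.p14, chr15:58137919-58138168, + strand) are shown because AQP9 is the gene on which the results turn and MYC is the targeted factor. The canonical E-box of MYC, CACGTG, reads the same on both strands and was searched for there.
AQP9: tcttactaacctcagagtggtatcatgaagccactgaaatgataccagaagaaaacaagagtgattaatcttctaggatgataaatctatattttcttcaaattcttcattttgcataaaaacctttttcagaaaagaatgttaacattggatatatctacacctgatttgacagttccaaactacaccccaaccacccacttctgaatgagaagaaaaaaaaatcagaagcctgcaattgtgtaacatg
The letters CACGTG did not occur in this window or in the same window of the AQP1, AQP7 and AQP3 starts listed. Among 35116 promoter windows of the same length, 2228 (6.34%) held them.

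In experiment 1, AQP9 was high in every Myc1 tumour, with 37.4, 36.3 and 47.7 CPM, against 10.7, 13.6, 12.9 and 8.52 CPM in Scr1 tumours. The groups did not overlap, and the lowest Myc1 tumour stood well above the highest Scr1 tumour. On the log2 scale the means were 5.33 ± 0.22 in Myc1 (SD, n = 3) and 3.49 ± 0.31 in Scr1 (SD, n = 4). The difference was 1.83 ± 0.27 (SE, 95% interval 1.27 to 2.40), or 3.57-fold, which ranked 66 among the genes tested. These values rested on an estimated 585, 728 and 942 reads in Myc1 libraries, and on 191, 296, 40 and 150 reads in Scr1 libraries. AQP9 was thus well counted in all but the shallow Scr1 replicate 3. Among the genes of a library, AQP9 stood at percentile 67.8 to 73.9 in Myc1 tumours and 42.0 to 48.6 in Scr1 tumours. Of all genes tested in this experiment, 270 (1.94%) were higher in Myc1 with no overlap and 316 (2.27%) were lower with none. Because this contrast chose AQP9, no p-value is given for it.

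In experiment 2, AQP9 differed more between tumours of one group than between the groups. The libraries labelled Myc2 had 8.86, 1.82, 37.9, 2.16 and 5.70 CPM, and those labelled Scr2 had 10.8, 2.97, 2.47 and 6.46 CPM. The groups overlapped, and Myc2 replicate 3 alone stood above every Scr2 tumour. From the lowest to the highest tumour, AQP9 spanned 20.8-fold in Myc2 and 4.37-fold in Scr2. The log2 means were 2.58 ± 1.77 in Myc2 (SD, n = 5) and 2.25 ± 0.99 in Scr2 (SD, n = 4). The difference of 0.33 ± 0.81 (SE, 95% interval -1.44 to 2.09) was smaller than the spread between tumours, with a limma adjusted p of 0.842. The exact two-sided permutation test, over 126 arrangements of the group labels, gave p = 0.825. AQP9 was higher than the Scr2 mean in 3 of 5 Myc2 tumours. Without Myc2 replicate 3 the difference was -0.34, the opposite sign. The interval still holds values as large as the difference of experiment 1, and the difference between the experiments was not tested, since the first contrast chose the gene.

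**Figure D1:**
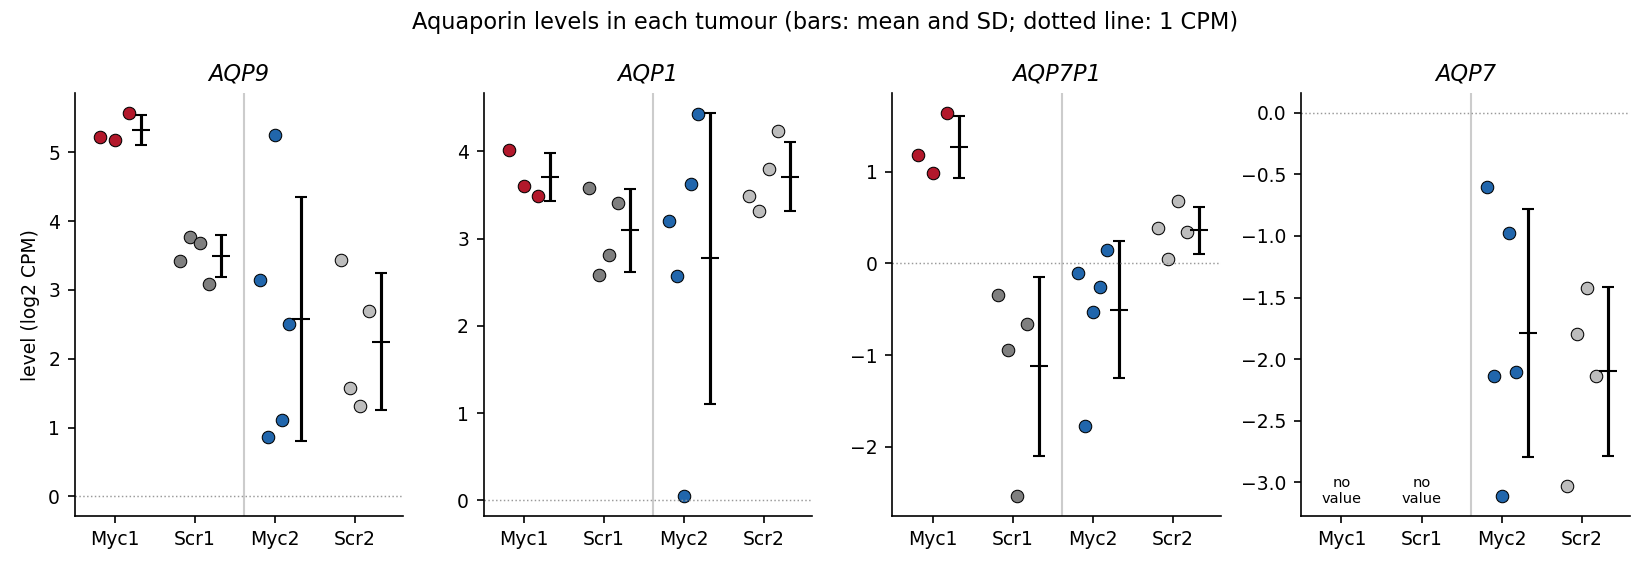
Level of AQP9, AQP1, AQP7P1 and AQP7 in each tumour (log2 CPM, vertical axis) in Myc1, Scr1, Myc2 and Scr2; each point is 1 tumour, the bars give mean and SD, the dotted line marks 1 CPM, and the grey line separates the tables of the experiments, which were normalized separately. The 3 Myc1 tumours lie above the 4 Scr1 tumours for AQP9 and AQP7P1, while in experiment 2 AQP9 overlaps and Myc2 replicate 3 is highest for AQP9 and lowest for AQP1.

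**Figure D2:**
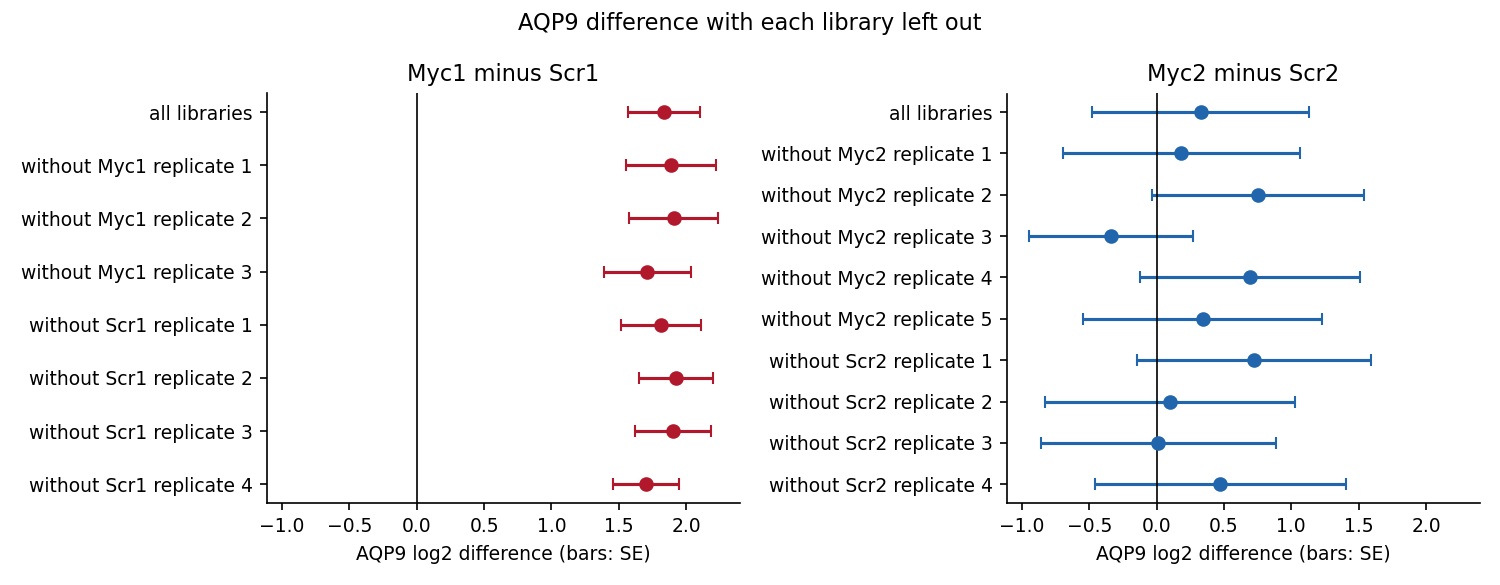
AQP9 log2 difference with all libraries and with each library left out in turn (bars: SE), for Myc1 minus Scr1 on the left and Myc2 minus Scr2 on the right. The Myc1 differences stay between 1.70 and 1.93, and the Myc2 differences run from -0.34 without Myc2 replicate 3 to 0.75 without Myc2 replicate 2. The Myc1 and Scr1 tumours did not overlap, so leaving out a library could not turn the sign on the left.

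The plot of AQP9 with libraries left out shows how much 1 tumour could move each difference. In experiment 1 the lowest value, 1.70, came without Scr1 replicate 4 and the highest, 1.93, without Scr1 replicate 2. Leaving out the shallow Scr1 replicate 3 therefore did not give either extreme. In experiment 2 the difference was 1.14 ± 1.10 (SE) without Scr2 replicates 1 and 4 together, the pair that stood apart on the first principal component of an earlier analysis.

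AQP7, the glycerol channel of adipocytes, and its pseudogene AQP7P1 lie on chromosome 9 and are close copies. Over 1028 aligned bases of their transcripts in GENCODE 29, 96.4% were identical, and the longest identical run was 93 bases. Of the 996 windows of 50 bases in AQP7P1, 91.3% also occurred in another gene, such as the pseudogenes AQP7P2, AQP7P3 and AQP7P4. For AQP7 the share was 4.71% of 5737 windows. Reads of AQP7P1 can therefore be split or dropped among these copies, depending on a counting method that is not given in the sources used here, and its values are uncertain. In the following 100 bases, the gap-free coding stretch with the most differences, capitals mark the 8 bases at which the copies differ. The stretch covers bases 412 to 511 of the AQP7 transcript and bases 252 to 351 of the AQP7P1 transcript.
AQP7: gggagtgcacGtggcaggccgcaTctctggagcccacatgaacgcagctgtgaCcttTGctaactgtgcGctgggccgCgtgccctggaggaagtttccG
AQP7P1: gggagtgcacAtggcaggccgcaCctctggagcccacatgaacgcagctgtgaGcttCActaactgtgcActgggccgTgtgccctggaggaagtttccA
Most of a short read from this stretch would be identical in both copies.

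AQP7P1 (ENSG00000186466) was a low gene, higher in Myc1 than in Scr1 tumours of experiment 1. It had 2.26, 1.98 and 3.13 CPM in Myc1 tumours, against 0.788, 0.521, 0.172 and 0.633 CPM in Scr1 tumours. The groups did not overlap, and Scr1 replicate 3 sat at the lowest value of its library. A count of 0 in that shallow library allows up to 0.955 CPM, still below the lowest Myc1 tumour. The gene reached the minimum of 1 CPM in 3 samples only through Myc1, the group in which it was high. Its estimated reads were 34, 43 and 71 in Myc1 libraries, and 13, 10, 0 and 11 in Scr1 libraries. The log2 means were 1.27 ± 0.34 in Myc1 (SD, n = 3) and -1.12 ± 0.98 in Scr1 (SD, n = 4), a difference of 2.39 ± 0.61 (SE, 95% interval 1.09 to 3.69), or 5.25-fold. With 1 added to each CPM before the logarithm, the difference was 1.18.

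In experiment 2, AQP7P1 stood on the other side. The libraries labelled Myc2 had 0.929, 0.293, 0.691, 0.837 and 1.10 CPM, and those labelled Scr2 had 1.31, 1.03, 1.60 and 1.27 CPM. All 5 Myc2 tumours were below the Scr2 mean, but Myc2 replicate 5 was above Scr2 replicate 2, so the groups overlapped. Estimated reads were at most 20 in a Myc2 library and 32 in a Scr2 library. The log2 means were -0.50 ± 0.75 in Myc2 (SD, n = 5) and 0.36 ± 0.26 in Scr2 (SD, n = 4). The difference of -0.87 ± 0.44 (SE, 95% interval -1.84 to 0.11) had an unadjusted limma p of 0.0757 and an adjusted p of 0.375. The exact two-sided permutation test gave p = 0.0317, the lowest of 3 such tests, for AQP9, AQP7P1 and AQP1, and it is not adjusted for their number. AQP7P1 reached 1 CPM in all 4 Scr2 tumours but in 1 of 5 Myc2 tumours, so it entered the fit of experiment 2 only through Scr2, the group in which it was high. A gene admitted in that way had to lean to that side, and nothing is rested on its p-values. AQP7P1 also lies within BMS1P10, whose log2 differences were 0.80 ± 0.47 (SE) for Myc1 minus Scr1 and 0.56 ± 0.37 for Myc2 minus Scr2.

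AQP7 itself (ENSG00000165269) had values in experiment 2 alone and did not reach 1 CPM in any tumour. The libraries labelled Myc2 had 0.657, 0.228, 0.116, 0.509 and 0.233 CPM, and those labelled Scr2 had 0.122, 0.288, 0.372 and 0.228 CPM. These were at most 12 estimated reads in a Myc2 library and 7 in a Scr2 library. In a fit over all genes of the table the log2 difference was 0.31 ± 0.62 (SE, 95% interval -1.04 to 1.66), so no difference was detectable at this depth. Single libraries moved this value. It was -0.000835 without Scr2 replicate 1, which had 1 estimated read, and 0.016 without Myc2 replicate 1. It was 0.64 without Myc2 replicate 3, and -0.18 without Scr2 replicates 1 and 4 together.

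AQP1 (ENSG00000240583), the water channel on chromosome 7, shared 25.1% of its 3431 windows with a readthrough transcript, AC004691.2, and none with other genes. In experiment 1 it had 16.2, 12.2 and 11.2 CPM in Myc1 tumours, against 11.9, 5.99, 7.04 and 10.6 CPM in Scr1 tumours. The groups overlapped, since Scr1 replicate 1 was above Myc1 replicate 3. The log2 means were 3.71 ± 0.28 in Myc1 (SD, n = 3) and 3.10 ± 0.47 in Scr1 (SD, n = 4), a difference of 0.61 ± 0.33 (SE, 95% interval -0.09 to 1.31).

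In experiment 2, AQP1 was low in a single tumour. The libraries labelled Myc2 had 9.24, 5.96, 1.03, 12.3 and 21.5 CPM, and those labelled Scr2 had 11.3, 9.99, 13.9 and 18.8 CPM. Myc2 replicate 3, the tumour highest in AQP9, was the lowest in AQP1, with an estimated 28 reads. Myc2 replicate 5 was highest of all 9 tumours, so that AQP1 spanned 20.9-fold within Myc2 and 1.88-fold within Scr2. The log2 means were 2.78 ± 1.67 in Myc2 (SD, n = 5) and 3.71 ± 0.40 in Scr2 (SD, n = 4). The difference of -0.94 ± 0.70 (SE, 95% interval -2.47 to 0.60) had a limma adjusted p of 0.488 and an exact two-sided permutation p of 0.349. Without Myc2 replicate 3 it was -0.25.

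Levels per length allowed AQP9 to be set beside AQP1. With 3235 exon bases for AQP9 and 3435 for AQP1 in GENCODE 29, AQP9 had 11.2 to 14.7 CPM per kb in Myc1 tumours and 2.63 to 4.21 in Scr1 tumours. AQP1 had 3.27 to 4.72 CPM per kb in Myc1 tumours and 1.74 to 3.48 in Scr1 tumours. The ratio of AQP9 to AQP1 per kb was 2.45, 3.16 and 4.50 in Myc1 tumours, against 0.954, 2.41, 1.94 and 0.852 in Scr1 tumours. AQP9 was the more abundant channel in every Myc1 tumour, and Scr1 tumours lay on both sides of equal levels. In experiment 2 the ratio was 1.02, 0.325, 39.0, 0.186 and 0.281 in the libraries labelled Myc2, and 1.02, 0.315, 0.189 and 0.365 in those labelled Scr2. AQP1 was thus the more abundant in 6 of 9 tumours there, about equal in Myc2 replicate 1 and Scr2 replicate 1, and far below AQP9 in Myc2 replicate 3. The authors' annotation is not given in the sources used here, so the lengths may not be the ones behind their counts.

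**Figure D3:**
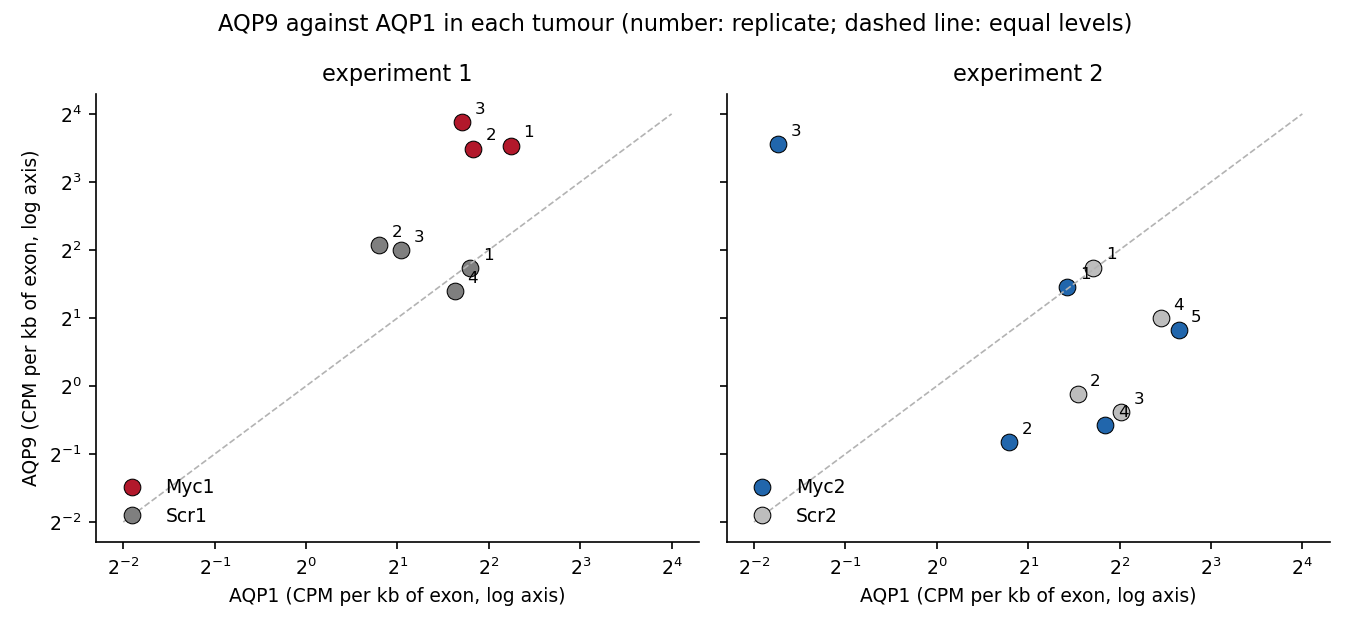
AQP9 (vertical axis) against AQP1 (horizontal axis) in each tumour, both in CPM per kb of exon on log axes, for experiment 1 (Myc1 and Scr1, left) and experiment 2 (Myc2 and Scr2, right); numbers give the replicate and the dashed line marks equal levels. The Myc1 tumours lie above the line at 11.2 to 14.7 CPM per kb of AQP9, and Myc2 replicate 3 is set apart by a ratio of 39.0.

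The other aquaporins were low wherever they had values. Of 16 further family members and pseudogenes listed, 3 had values in experiment 1 and 5 in experiment 2. AQP11, a channel of internal membranes, had 1.34, 1.81 and 1.29 CPM in Myc1 tumours, against 0.788, 1.84, 0.694 and 0.589 CPM in Scr1 tumours, a log2 difference of 0.74 ± 0.54 (SE). Scr1 replicate 2 was above all 3 Myc1 tumours and was the only Scr1 tumour at 1 CPM or more, so AQP11 entered this fit through Myc1. In experiment 2 AQP11 had 0.422, 1.33, 0.878, 1.49 and 1.44 CPM in the libraries labelled Myc2, and 2.29, 1.98, 1.83 and 2.47 CPM in those labelled Scr2. The groups did not overlap, as was so for 229 genes (1.61%) lower and 199 genes (1.4%) higher in Myc2. The log2 difference was -1.07 ± 0.42 (SE, 95% interval -1.995 to -0.15), with a limma p of 0.0261 and an adjusted p of 0.370.

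AQP6, known from vesicles of kidney cells, had log2 differences of 0.04 ± 0.56 (SE) for Myc1 minus Scr1 and 0.65 ± 0.65 for Myc2 minus Scr2, the second with a limma adjusted p of 0.602. The AQP6 difference changed sign without Myc1 replicate 2 (-0.31), Scr1 replicate 1 (-0.17) or Scr1 replicate 3 (-0.16) in experiment 1. In experiment 2 it was 0.11 without Scr2 replicate 4 and -0.37 without Scr2 replicates 1 and 4 together. The row named AQP7P3 in the tables did not reach the minimum level in either experiment. Its identifier there, ENSG00000156750, differs from that of AQP7P3 in GENCODE 29, so the locus behind these values is uncertain. Its differences were 1.42 ± 0.67 for Myc1 minus Scr1 and 1.11 ± 0.87 for Myc2 minus Scr2. With 1 added to each CPM the first was 0.41. The second was 0.14 without Scr2 replicate 1, which had 0 estimated reads, and -0.45 without Scr2 replicates 1 and 4 together. AQP2, the vasopressin-regulated channel of the kidney collecting duct, and AQP5, a channel of salivary and other glands, had values below the minimum in experiment 2 alone. Their log2 differences were -0.76 ± 0.91 for AQP2 and -0.48 ± 0.96 for AQP5. With 1 library left out, AQP2 ran from -1.41 (without Myc2 replicate 2) to -0.32 (without Scr2 replicate 2), and AQP5 from -1.11 (without Myc2 replicate 2) to 0.22 (without Myc2 replicate 3), where its sign changed. None of these aquaporins passed an adjusted p of 0.05 with limma.

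**Figure D4:**
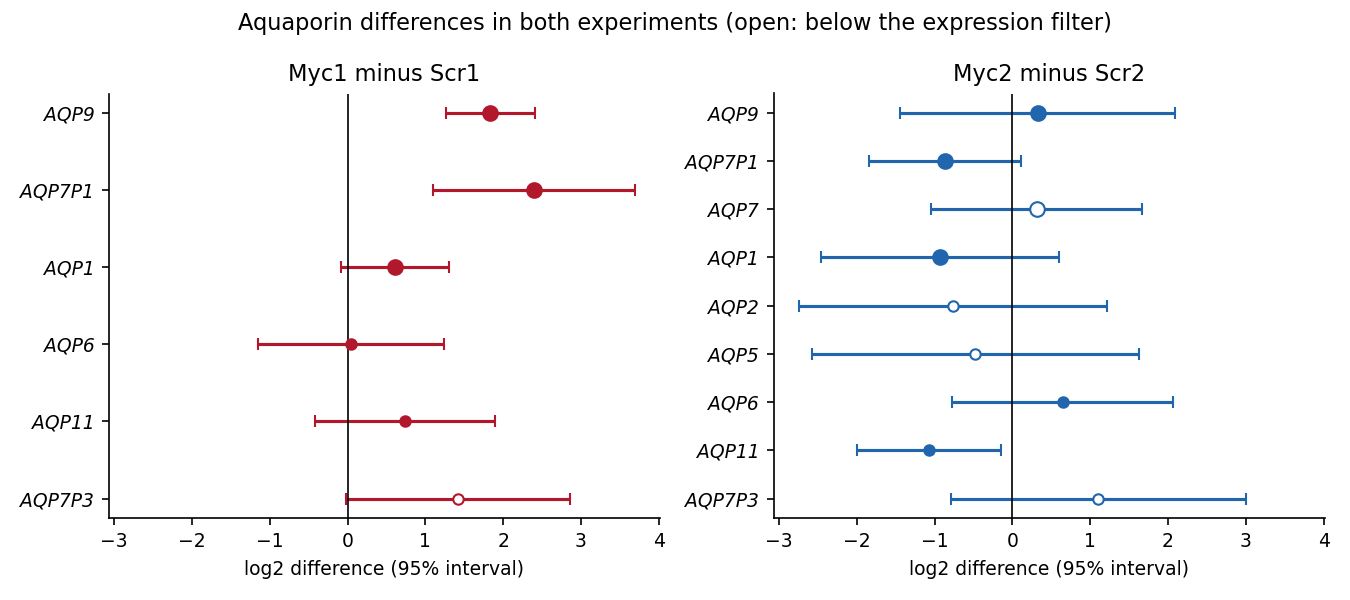
Log2 difference with its 95% interval for every aquaporin with values, Myc1 minus Scr1 on the left and Myc2 minus Scr2 on the right; large points are AQP9, AQP7P1, AQP7 and AQP1, small points the other aquaporins, and open points genes below the minimum level. The experiment 1 points of AQP9 (1.83) and AQP7P1 (2.39) describe the contrast that chose AQP9 and are no test. In experiment 2 the points run from -1.07 for AQP11 to 1.11 for AQP7P3.

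Genes that handle what AQP9 and AQP7 transport were counted next. Of 33 genes of glycerol and triglyceride handling, 23 were tested in experiment 1: 9 were above 0 and 14 below, with a median log2 difference of -0.10. In experiment 2, 24 were tested, 15 above 0 and 9 below, with a median of 0.21. That median was 0.07 without Myc2 replicate 2, 0.09 without Scr2 replicate 1, 0.01 with library weights and -0.04 without Scr2 replicates 1 and 4 together, so the list had no stable side. Over all genes tested, 6901 were above 0 and 7032 below in experiment 1, and 6843 were above and 7365 below in experiment 2. The corresponding medians were -0.00283 and -0.0183. At an unadjusted p under 0.05, 1 gene of the list was lower in Myc1, namely MGLL, a monoglyceride lipase that frees glycerol, at -0.59 ± 0.26 (SE). In experiment 2, 1 was higher, LPIN3, a phosphatidate phosphatase, at 1.18 ± 0.48. Over all genes tested, 1.52% were lower in Myc1 and 7% higher in Myc2 at that threshold. Glycerol kinase, GK, which traps glycerol in the cell, had a difference of -0.40 ± 0.20 in experiment 2. HILPDA, a lipid droplet protein, had 0.86 ± 0.40 in experiment 1, and DGAT2, which makes triglycerides, 0.55 ± 0.33. ABHD5, a co-activator of triglyceride lipase, had -0.50 ± 0.25 in experiment 2.

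Of 8 tested lactate and urea carriers and lactate dehydrogenases, 5 were above 0 and 3 below in each experiment, with medians of 0.05 and 0.14. None had an unadjusted limma p under 0.05 in experiment 1, where 1.96% of all genes were higher and 1.52% lower at that threshold. SLC14A1, a urea channel, had 0.42 ± 0.35 (SE) in experiment 1. The monocarboxylate carriers SLC16A3 and SLC16A7 had 0.28 ± 0.40 and -0.32 ± 0.47 there. In experiment 2, SLC16A3 was at 0.89 ± 0.28 with an unadjusted limma p of 0.00869 and an adjusted p of 0.370. SLC16A1, another lactate carrier, was at 0.41 ± 0.18. These were the 2 genes of the list higher in Myc2 at an unadjusted p under 0.05, where 7% of all genes were. LDHB had -0.28 ± 0.16.

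Among PPAR factors and lipid carriers, whose program includes AQP7 in adipocytes, 13 genes were tested in each experiment, 7 above 0 and 6 below in experiment 1 and 8 above and 5 below in experiment 2. Medians were 0.09 and 0.04. FABP4, the adipocyte fatty acid carrier, had log2 differences of -1.48 ± 0.38 (SE) for Myc1 minus Scr1 and -1.65 ± 0.67 for Myc2 minus Scr2. PPARG, the master factor of fat cells, had -0.70 ± 0.31 and -1.25 ± 0.40 in the same order. These were the 2 genes of the list with an unadjusted limma p under 0.05 and a lower level in each experiment. Over all genes tested, 1.52% in experiment 1 and 6.36% in experiment 2 were lower at that threshold. PPARGC1A, a co-activator of PPARG, was the 1 gene on the higher side in experiment 1, at 1.27 ± 0.53, where 1.96% of all genes were. FABP5 had -0.45 ± 0.24 in experiment 2.

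Cell volume and ion transport genes act with water channels when cells swell or shrink. Of 20 tested in each experiment, 5 were above 0 and 15 below in experiment 1 (median -0.32), and 12 above and 8 below in experiment 2 (median 0.06). SLC4A4, a bicarbonate cotransporter, was higher in Myc1 with no overlap, at 2.15 ± 0.66 (SE). Its log2 means were 0.83 in Myc1 and -1.31 in Scr1. SLC4A4 reached the minimum level only through Myc1, the group in which it was high, so it had to lean to that side. Of all genes tested, 270 (1.94%) were higher in Myc1 with no overlap and 316 (2.27%) were lower with none. The taurine carrier SLC6A6 was lower in Myc1 with no overlap, at -0.64 ± 0.26, and had 1.07 ± 0.51 in experiment 2. CLCN2, a chloride channel, had -0.80 ± 0.34 in experiment 1. In experiment 2, the cotransporter SLC12A4 had 0.67 ± 0.30 and NFAT5, the osmotic stress factor, 1.05 ± 0.57. Of the complex that anchors AQP4 at endfeet, 7 genes were tested in each experiment, 2 above 0 and 5 below in both, with medians of -0.04 and -0.23. In experiment 1 the median was -0.32 without Myc1 replicate 1, -0.28 without Myc1 replicate 2, -0.19 without Scr1 replicate 1 and -0.21 without Scr1 replicate 2. In experiment 2 it was 0.00651 without Scr2 replicates 1 and 4 together. Its laminin chain LAMA2 had 0.86 ± 0.43 for Myc1 minus Scr1 and -0.99 ± 0.41 for Myc2 minus Scr2. DAG1 and AGRN, which link laminin to the cell, had -0.46 ± 0.27 and -0.60 ± 0.36 in experiment 1. In experiment 2, AGRN had 0.74 ± 0.41 and DTNA, a dystrobrevin, 0.35 ± 0.24. No gene of any list passed an adjusted p of 0.05.

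Markers of cells in which these channels are known were summed in CPM, and their part in the results was not tested. All were human genes, while host cells of the grafts are mouse, and 0 mouse gene IDs had values. The sums therefore do not measure amounts of host cells. Whether mouse reads added to them is not given in the sources used here. In experiment 1, 8 of 10 astrocyte markers had values, and their sum was 384 to 511 in Myc1 tumours and 199 to 457 in Scr1 tumours. The sum of 7 of 10 endothelial markers was 11.1 to 26.0 in Myc1 and 4.81 to 10.1 in Scr1, with no overlap. Only 2 of them reached the minimum level: EMCN, with log2 means of 3.36 in Myc1 and 1.37 in Scr1, and KDR, with 0.23 and -0.97. PECAM1, CDH5 and CLDN5 were not among those 7. EMCN had a difference of 1.99 ± 0.61 (SE) with no overlap, as was so for 270 genes (1.94%) higher in Myc1. The sum of 4 of 8 adipocyte markers was 14.4 to 19.9 in Myc1 and 20.1 to 35.5 in Scr1, again with no overlap. ADIPOQ, LEP, LPL and CFD were not among those 4. PPARG made up most of the sum, with log2 means of 3.76 in Myc1 and 4.46 in Scr1, and by itself overlapped between the groups. The neutrophil list rested on ELANE, 1 of 9 markers, at 0.176 to 1.29 in Myc1 and 0.154 to 0.308 in Scr1. For hepatocytes, SERPINA1 alone of 8 markers had values, 11.5 to 40.3 in Myc1 and 6.03 to 25.1 in Scr1. The myeloid sum, over 4 of 14 markers, was 333 to 403 in Myc1 and 248 to 349 in Scr1. It rested mostly on CD68, with log2 means of 8.43 in Myc1 and 8.09 in Scr1. Of the 3 myeloid markers tested, 1 was above 0 and 2 were below. CD68 had 0.34 ± 0.20 (SE), CSF1R -0.25 ± 0.31 and MSR1 -1.70 ± 0.65 for Myc1 minus Scr1. PIFO and SLC4A5, the 2 of 9 choroid plexus and ependymal markers, summed to 5.73 to 25.8 in Myc1 and 2.82 to 10.6 in Scr1. For red cells, EPB42 alone of 7 markers had values, 1.48 to 2.195 in Myc1 and 1.51 to 1.86 in Scr1.

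In experiment 2 each of these marker sums overlapped between the groups. The astrocyte sum was 269 to 960 in the libraries labelled Myc2 and 237 to 555 in those labelled Scr2. The endothelial sum, over 8 of 10 markers, was 13.0 to 59.2 in Myc2 and 10.3 to 29.6 in Scr2. The adipocyte sum was 5.44 to 15.6 in Myc2 and 11.3 to 37.6 in Scr2. The myeloid sum was 179 to 278 in Myc2 and 164 to 272 in Scr2. ELANE had 0.0958 to 0.758 in Myc2 and 0.0958 to 0.353 in Scr2. The hepatocyte sum, over 2 of 8 markers, was 5.65 to 24.99 in Myc2 and 4.00 to 7.94 in Scr2. PIFO and SLC4A5 summed to 3.95 to 11.4 in Myc2 and 4.19 to 8.32 in Scr2, and EPB42 had 1.53 to 2.89 in Myc2 and 2.69 to 2.96 in Scr2.

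Genes whose level across tumours was most like that of AQP9 were listed by Pearson's r, as a description over tumours that share a table and its normalization. Over the 7 tumours of experiment 1 they were FAM216A (r = 0.98), ERLIN2 (0.98), MAN1C1 (0.96), THSD7A (0.96) and PQLC3 (0.96). With the group means removed, r was 0.78, 0.62, 0.77, 0.50 and 0.90 in that order, so much of the likeness was the step between the groups. Over the 9 tumours of experiment 2 they were PMPCB (0.98), AKR1B1 (0.94), MKLN1-AS (0.94), PSAT1 (0.94) and ZNF212 (0.93). Without Myc2 replicate 3, r was 0.97, 0.89, 0.93, 0.84 and 0.84 in that order. Of these, 4 lie on chromosome 7, as did 24 of the 97 genes with a known chromosome among the 100 most like AQP9. Chromosome 7 holds 5.06% of the 12830 tested genes with a known chromosome, and without Myc2 replicate 3 it held 7 of the 100 most alike. PTGR2, a prostaglandin reductase, was the 1 gene among the 100 most like AQP9 in both experiments, with r of 0.95 and 0.85.

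For AQP7P1 the most alike were GOLGA8I (0.95), CES4A (0.94) and ODF3L1 (0.94) in experiment 1, and RBBP9 (0.97), SAMD13 (0.95) and LNP1 (0.94) in experiment 2. For AQP1 they were hsa-mir-8072 (0.96), PABPC4 (0.93) and SLX1A-SULT1A3 (0.92) in experiment 1, and BBS9 (0.99), PLA2G4A (0.97) and LSAMP (0.95) in experiment 2. Between AQP9 and AQP7P1, r was 0.81 over experiment 1 and -0.30 with the group means removed, and 0.15 over experiment 2. Between AQP9 and AQP1, r was 0.50 over experiment 1 and -0.76 with the group means removed. Over experiment 2 it was -0.59, and 0.34 without Myc2 replicate 3, so that relation rested on 1 tumour.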

How the data were processed

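The tables that the authors deposited hold log2 values per human gene, for 7 tumours (experiment 1) and 9 tumours (experiment 2). No label names the unit; on a linear scale the deposited values summed to 998367 to 998392 in experiment 1 and 995054 to 995076 in experiment 2, and the sorted values of a table's samples were the same apart from ties, as in log2 CPM after quantile normalization. That normalization hides a change of most genes at once. Per the submitters' processing notes, bcl2fastq 2.20.0, STAR 2.6.0b and Picard were used, with hg19 and mm10. How reads were counted, with which annotation, and whether mouse reads were set apart is not given in the sources used here. Both tables held 0 mouse gene IDs, and 0 value columns could not be mapped to a sample.

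Depth was estimated from the spacing of the lowest distinct values (steps 10 to 60) of each library, taken as log2(count + 0.5), and the estimated reads of a gene are the number of distinct lower values in its library. The limit that a count of 0 allows (3 counts) covers counting error only, while intervals of differences rest on the spread between tumours.

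Each experiment was fitted by itself with limma 3.58.1 in R 4.3.3 (trend and robust settings), on genes with at least 1 CPM in 3 samples of experiment 1 or 4 of experiment 2. P-values were adjusted by Benjamini-Hochberg over all genes tested, with a threshold of 0.05. Genes below the minimum were fitted with all genes of their table. Exact permutations used scipy 1.17.1 in Python 3.11.15, and sequences of GENCODE 29 and RefSeq were aligned with Biopython 1.88. The fit was also run on simulated data with the same depth in every library. Those data did not copy the depths or the spread of these tumours, so nothing here rests on that run. Members and lists were chosen with earlier results of these data known. Named were the 5 symbols, every further aquaporin with values, the 3 genes of each other list with the smallest unadjusted p, the 5 genes most like AQP9 and the 3 most like each other member tested, and genes among the 100 most like AQP9 in both tables. Of the marker lists, the summed levels are given, with single genes chosen after their values were seen. Alternatives were other offsets (0.1 and 1), no filter, other settings, library weights, and libraries left out.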

Additional observations from a re-analysis of the deposited data

Results flagged for a closer look

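AQP7P1 had a log2 difference of 2.39 for Myc1 minus Scr1 and -0.87 for Myc2 minus Scr2. Every Myc1 tumour was above the Scr1 mean, and every tumour labelled Myc2 was below the Scr2 mean. In each experiment AQP7P1 reached the minimum level only through the group in which it was high. AQP11 had 0.74 for Myc1 minus Scr1 and -1.07 for Myc2 minus Scr2, with the same split around the means, though Scr1 replicate 2 was above every Myc1 tumour. In experiment 1, AQP11 reached 1 CPM in every Myc1 tumour but in Scr1 only in replicate 2, so it too entered through Myc1. The difference between the experiments was not tested for either gene. How many of all genes split in this way was not counted, so the split by itself says little. The counts were low: at most 71 estimated reads of AQP7P1 and 39 of AQP11 in a library. Within the groups of 4 or 5 tumours, 24 sets of values were checked for a tumour far from the others, and none was found at a level that chance reaches in about 1 of 20 sets.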

How the results depend on the processing

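No paired analysis was possible because the labels number mice individually and give no replicate numbers shared between groups. For AQP9 in experiment 1, the difference was 1.75 to 1.83 with other offsets, filters, settings or weights, and 1.70 to 1.93 with 1 library left out. That contrast chose AQP9 and its groups did not overlap. None of these alternatives could turn the sign, and the kept sign is no test. In experiment 2 its difference reversed to -0.34 without Myc2 replicate 3 and ranged from -0.34 to 0.75 with 1 library left out. AQP6 in experiment 2 reversed to -0.37 without both Scr2 libraries 1 and 4. AQP7P1 ranged from 1.92 to 2.65 in experiment 1 and from -1.03 to -0.55 in experiment 2 with 1 library left out, AQP1 from 0.44 to 0.77 and from -1.35 to -0.25, and AQP11 in experiment 2 from -1.21 to -0.76. The adjusted p-values of AQP9, AQP7P1, AQP1 and AQP11 in experiment 2 stayed above 0.05 with 1 library left out, between 0.166 and 0.995. The number of genes past an adjusted p of 0.05, 0 with all libraries, was 0 to 2 in experiment 1 and 0 to 9 in experiment 2 with 1 library left out, and 2 in experiment 2 without both Scr2 libraries 1 and 4. Leaving out Myc1 replicate 1 or Myc1 replicate 2 gave 2 in experiment 1, Scr1 replicate 2 gave 1, and Myc2 replicate 3 gave 9 in experiment 2. Genes at an unadjusted p under 0.05, 485 and 1898 with all libraries, were 177 without Myc1 replicate 3, 280 without Scr1 replicate 4 and 791 without Scr1 replicate 2, with the highest number without Scr1 replicate 3, and in experiment 2 lay between 710 (Scr2 replicate 4 left out) and 3878 (Scr2 replicate 2 left out). The medians of other lists also crossed 0 with 1 library left out: glycerol and triglyceride handling in experiment 1 (-0.17 to 0.01), lactate and urea carriers in experiment 1 (-0.06 to 0.11), and PPAR and lipid carrier genes in experiment 1 (-0.06 to 0.15) and experiment 2 (-0.18 to 0.28). That of cell volume and ion transport in experiment 2 was -0.10 without both Scr2 libraries 1 and 4. The cause was not tested. Depth limits AQP7, AQP7P1, AQP7P3, AQP2 and AQP5, which had few reads, and Scr1 replicate 3.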

Other observations

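In Myc2 replicate 3, AQP9 was 3.20 above the median of the other 8 tumours of experiment 2 on the log2 scale, and AQP1 stood at -3.52 against it. Neighbours were the nearest protein-coding genes that reached the minimum level, 5 on each side in RefSeq order. The 10 neighbours of AQP9 had a median of 0.18 in the same comparison (from -0.53 to 1.496). The 10 neighbours of AQP1 had a median of 0.39 (from -0.59 to 0.77). Genes of chromosome 7, which carries AQP1, had a median of 0.32 in this tumour, and genes of other chromosomes a median of -0.01. AQP1 was thus low in a tumour in which most of its neighbours were above the median of the other tumours.

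Around AQP9 in experiment 1, the median difference of the 10 neighbours, Myc1 minus Scr1, was 0.00438. GCOM1 and MYZAP, which overlap each other, had -2.49 ± 1.18 (SE) and 2.38 ± 1.39, and the other 8 lay between -0.40 and 0.31. In experiment 2 the neighbours ran from -0.72 to 0.77. The 10 neighbours of AQP1 ran from -0.63 to 0.73 in experiment 1 and from -0.47 to 0.25 in experiment 2.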
